A study of Mus musculus with 6 samples.

Results

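The MYC, MAX and MXD network was followed as the endogenous genes *Myc*, *Mycn*, *Mycl*, *Max*, *Mxd1*, *Mxd3*, *Mxd4*, *Mxi1* and *Mnt* in cells reprogrammed without a *Myc* transgene. The 9 genes were chosen by symbol, as the mouse genes that code for MYC proteins, their partner MAX and the MAX-bound antagonists. They are 9 of the 54331 genes listed, and all of them reached the mean of 1 TPM (transcript abundance per length, scaled to 1000000 per well) that was required for testing, as did 15382 genes in all. RNA was sequenced at 10 days post infection (dpi) from 3 wells given 4OHT (OSKA + 4OHT) and 3 wells given vehicle (OSKA − 4OHT). Both groups were mouse embryonic fibroblasts (MEFs) from pooled male E13.5 embryos of an Oct4-EGFP transgenic line on a mixed C57BL/6, DBA/2 and ICR background. Cells of both groups had been transduced with retroviruses for Oct4, Sox2, Klf4 and AKT-MER, a fusion of myristoylated AKT with a modified estrogen receptor that 4-hydroxytamoxifen (4OHT) activates. From 3 dpi, the OSKA + 4OHT wells received 1 µM 4OHT and the OSKA − 4OHT wells received its vehicle, ethanol. Transduced cells were replated into these wells at 3 dpi, so the p-values measure the spread between wells and not between independent cultures of MEFs. Libraries without AKT-MER were not analysed here, so an effect of 4OHT itself and one of activated AKT cannot be told apart in these 6 libraries.

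MYC, MYCN and MYCL are transcription factors that bind DNA as dimers with MAX, most strongly at the E-box CACGTG, and raise the transcription of genes for ribosome synthesis, metabolism and cell division. MXD1, MXD3, MXD4, MXI1 and MNT also need MAX, bind the same E-boxes and repress by recruiting SIN3 and histone deacetylases, so that both classes compete for MAX and for sites. MYC was one of the original reprogramming factors and increases the yield of induced pluripotent cells, while *Mycn* is well expressed in embryonic stem cells and *Mycl* can take the place of *Myc* in the factor cocktail.

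The network genes themselves can carry the sites that this network and the cell cycle factors of the E2F family read, and the start-site regions of the members are shown here for that reason. Promoter windows from 250 bases before to 50 bases after the transcription start were read from RefSeq on GRCm38.p6 for 8 of the 9 members. The window of *Myc* was not analysed here. The E-box CACGTG, which reads the same on both strands, was present in 3 of these 8 members, *Max*, *Mxd4* and *Mnt*, and in 8.09% of the 27025 genes with a window (7.15% of all 32851 windows). TTTGGCGC, 1 form of the E2F motif, was searched on both strands. It was present in 1 of the 8, *Mycn*, and in 0.585% of genes (0.514% of all windows). Other forms of the E2F motif were not searched, so the other members are not shown to lack E2F sites. The *Mycn* window held 2 matches to TTTGGCGC, 15 bases apart and 183 and 168 bases before the start, and 0.00609% of all windows held at least 2. The stretches around the matches, each read 5′ to 3′ along the strand of its gene with the motif in capitals, are chr12:12941967-12942049 on the minus strand for *Mycn*, chr12:76962246-76962281 on the minus strand for *Max*, chr5:34187894-34187959 on the minus strand for *Mxd4* and chr11:74830771-74830836 on the plus strand for *Mnt*.
Mycn: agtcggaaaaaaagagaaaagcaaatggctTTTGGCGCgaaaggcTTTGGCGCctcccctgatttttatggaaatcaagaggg
Max: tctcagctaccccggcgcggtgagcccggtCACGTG
Mxd4: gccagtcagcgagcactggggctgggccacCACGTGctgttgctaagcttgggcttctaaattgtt
Mnt: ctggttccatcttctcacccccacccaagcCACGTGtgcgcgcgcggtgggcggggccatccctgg
The E-box of *Max* began 3 bases before the start, that of *Mxd4* 219 bases before and that of *Mnt* 123 bases before. A match is a run of letters, and binding at these sites was not measured here.

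The deposited TPM values of each well add up to 1000000 and do not keep the sequencing depth. Approximate depths, read from the steps in the values of genes with a single transcript, are uncertain, since only 36.3% to 40.4% of the values used came out close to whole reads, beside 30% if they were evenly spread. They were between 0.486 and 1 relative to the deepest library in the OSKA − 4OHT group and between 0.777 and 0.910 in the OSKA + 4OHT group. The genes whose parts make up AKT-MER were abundant in all 6 wells, with *Akt1* between 448.4 and 750.6 TPM and *Esr1* between 2174.6 and 3374.4 TPM. Their log2 fold changes of −0.35 and −0.29 did not pass the test (limma, adjusted p = 0.286 and 0.287). These values are per gene and do not separate the fusion from endogenous transcripts. Differences are given as OSKA + 4OHT relative to OSKA − 4OHT, as log2 fold changes of TPM + 0.5 with limma-trend and Benjamini-Hochberg adjustment over the 15382 tested genes. Calls needed both an adjusted p-value under 0.05 and a log2 fold change beyond 1 in size. Over all tested genes the median difference was 0.14 on the log2 scale, and it became 0.05 with trimmed mean scaling and 0.00 with quantile normalization, so values relative to this median are added for the called members. Most tested genes, 59.3%, had a log2 fold change above 0 in the fit as reported.

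Of the 9 members, 1 was called higher, *Mycn*, and 1 was called lower, *Myc*, beside 2.87% of all tested genes called higher, 1.37% called lower and 4.23% called in either direction. The same 2 members were those with an unadjusted p-value under 0.05, as were 21.3% of all tested genes. With trimmed mean scaling and with quantile normalization, *Mxd4* was also under that unadjusted limit, with log2 fold changes of −0.49 and −0.50 (limma adjusted p = 0.196 and 0.201). The call of *Mycn* depends on the filter, which it passed only through its treated wells, and without a filter 0 members were called higher. The other 7 members did not pass the test in either direction. The median log2 fold change of the 9 members was −0.08 (−0.17 with trimmed mean scaling and −0.25 with quantile normalization), and 4 of them had a value above 0 (3 with quantile normalization, where *Mxd1* turned to −0.12). The wells of the groups did not overlap for 2 of the 9 members, beside 28.2% of all tested genes.

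**Figure D1:**
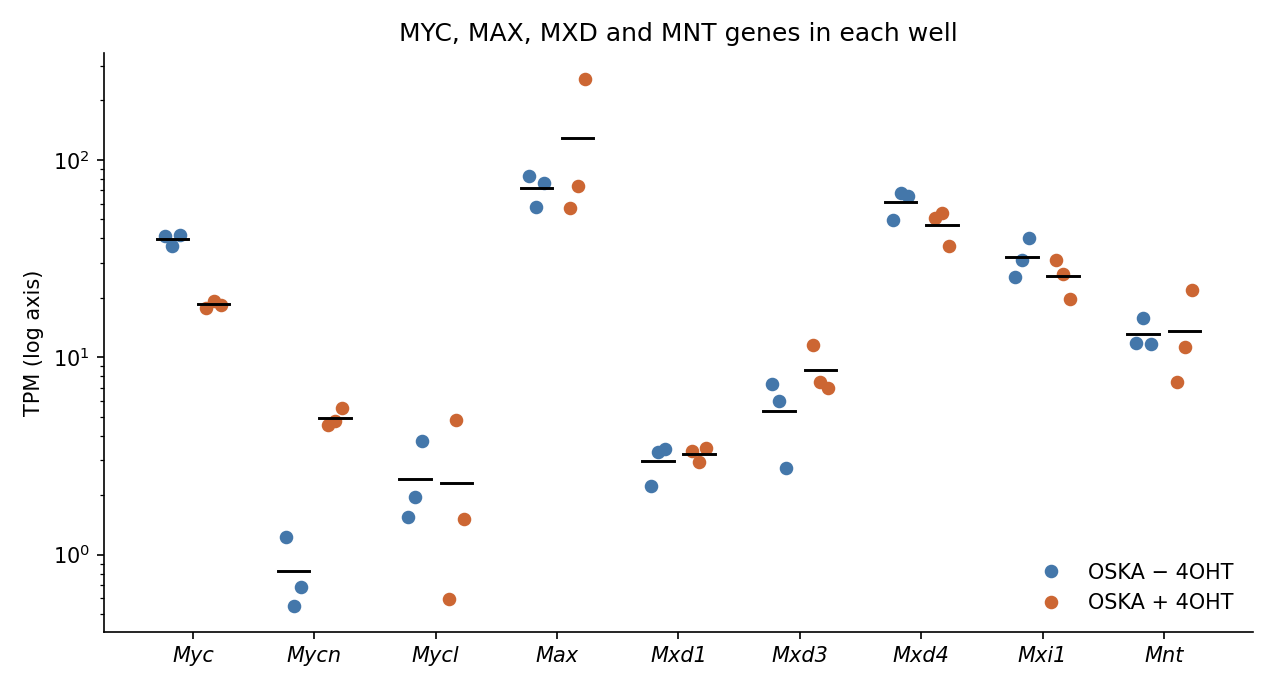
Level of each of the 9 network genes in each well, in TPM on a log axis, with 3 wells per group as points and the group mean as a bar. *Myc* lies lower and *Mycn* higher in all 3 OSKA + 4OHT wells than in any OSKA − 4OHT well, and the wells of the other 7 genes overlap.

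*Myc* (ENSMUSG00000022346, chr15:61985391-61990374 on the plus strand of GRCm38) codes for the MYC protein of most proliferating cells. It was listed at 41.2, 36.7 and 41.5 TPM in the vehicle wells (replicates 1, 2 and 3 of OSKA − 4OHT, the order kept throughout) and at 17.8, 19.3 and 18.4 TPM in the treated wells. All 3 treated wells lay close together and far below the lowest vehicle well. The mean fell from 39.8 ± 2.66 to 18.5 ± 0.758 TPM (SD, n = 3), a ratio of 0.465. The log2 fold change was −1.08 (SE 0.149, 95% interval −1.44 to −0.72, limma adjusted p = 0.0144), and −1.23 relative to the median of all genes. The adjusted p-value ranged from 0.0451 to 0.0699 when 1 well was left out and stayed under 0.05 in 3 of 6 such fits. The call was lost without OSKA − 4OHT replicate 1 (0.0513), OSKA + 4OHT replicate 1 (0.0699) or OSKA + 4OHT replicate 2 (0.0613), and the log2 fold change stayed between −1.14 and −1.05.

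*Mycn* (ENSMUSG00000037169, chr12:12936093-12941914 on the minus strand) codes for N-MYC, the family member of neural progenitors and pluripotent cells. It was listed at 1.23, 0.551 and 0.688 TPM in the vehicle wells and at 4.51, 4.73 and 5.51 TPM in the treated wells. The vehicle wells were all near the lower end of what was measured, and the treated wells were all well above them. The mean rose from 0.824 ± 0.361 to 4.92 ± 0.524 TPM, a ratio of 5.96, with a log2 fold change of 2.06 (SE 0.379, 95% interval 1.15 to 2.97, limma adjusted p = 0.0338) and of 1.92 relative to the median of all genes. The size of this change depends on the pseudocount, with log2 fold changes of 2.50, 1.71 and 1.30 at pseudocounts of 0.1, 1 and 2. *Mycn* averaged under 1 TPM in the vehicle wells and passed the filter only through the treated wells, and without that filter its adjusted p-value was 0.0702. On the longest annotated transcript of 2674 bases, these levels correspond to about 1.56 to 2.50 reads per vehicle well and 16.4 to 18.0 reads per treated well, so the vehicle wells lay under a floor of 3 reads. On the shortest, they correspond to about 0.278 to 0.446 and 2.92 to 3.20 reads. For the longest transcript, summed over wells and adjusted for depth, the ratio of the approximate reads was 6.88, with an exact 95% interval of 2.96 to 19.6 that covers counting error only. No leave-one-out fit kept the call of *Mycn*, with adjusted p-values from 0.0528 to 0.135 and log2 fold changes from 1.91 to 2.27.

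*Mycl* (ENSMUSG00000028654, chr4:122995652-123002485 on the plus strand) codes for L-MYC. It was listed at 1.54, 1.95 and 3.78 TPM in the vehicle wells and at 0.593, 4.80 and 1.52 TPM in the treated wells. The treated wells held both the lowest and the highest value of the 6. The log2 fold change was −0.29 with a 95% interval of −1.92 to 1.34 (limma adjusted p = 0.842), an interval that holds changes of more than 2-fold in both directions.

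The summed level of *Myc*, *Mycn* and *Mycl* was 44.0, 39.2 and 45.9 TPM in the vehicle wells and 22.9, 28.9 and 25.4 TPM in the treated wells. The groups did not overlap, with means of 43.0 ± 3.45 and 25.7 ± 3.01 TPM. *Myc* made up 92.5 ± 1.93% of this sum in the vehicle wells and 72.3 ± 5.35% in the treated wells, and *Mycn* made up 1.91 ± 0.784% and 19.3 ± 2.68%. The level of *Myc* over that of *Mycn* was 33.4, 66.6 and 60.3 in the vehicle wells and 3.95, 4.09 and 3.33 in the treated wells. *Myc* thus remained the most abundant of the 3 MYC genes in all 6 wells, and the level gained by *Mycn* was smaller in TPM than the level lost by *Myc*. These are mRNA levels, and MYC proteins, which are short-lived, were not measured here.

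**Figure D2:**
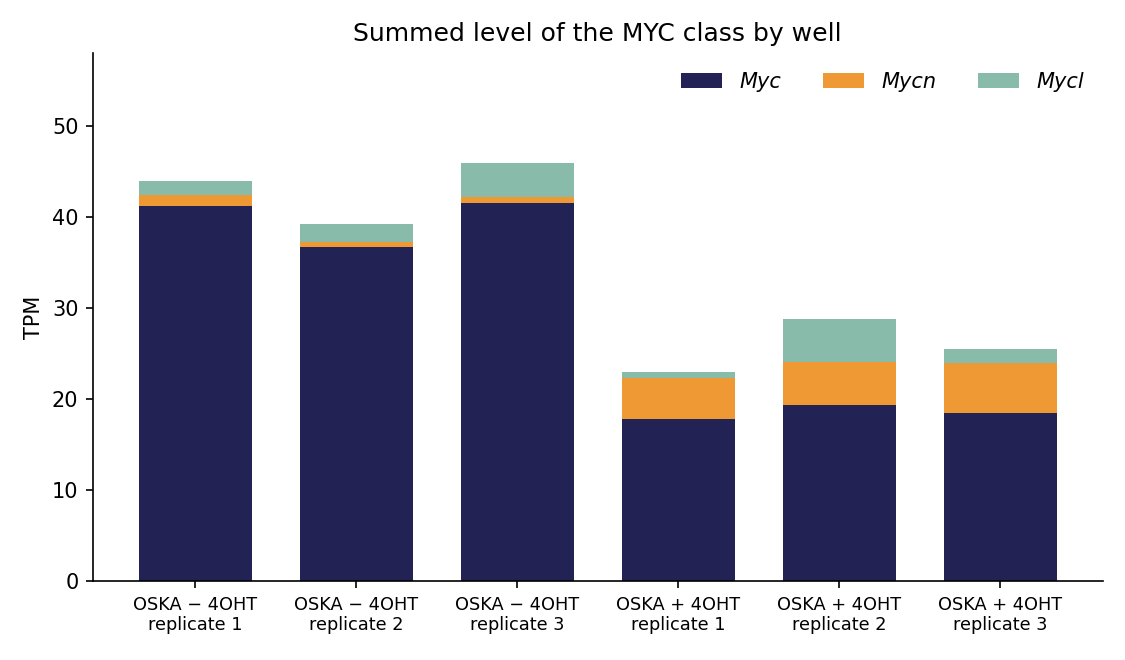
Summed TPM of *Myc*, *Mycn* and *Mycl* in each of the 6 wells, stacked by gene on an axis that starts at 0. The sum is 39.2 to 45.9 TPM in the OSKA − 4OHT wells and 22.9 to 28.9 TPM in the OSKA + 4OHT wells, and *Mycn* takes a visible part of it in the OSKA + 4OHT wells.

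*Max* (ENSMUSG00000059436, chr12:76937269-76962201 on the minus strand) codes for the partner that both classes share. It was listed at 82.3, 57.3 and 76.1 TPM in the vehicle wells and at 56.7, 73.6 and 255.6 TPM in the treated wells. OSKA + 4OHT replicate 3 stood apart, while the other treated wells fell within or just below the range of the vehicle wells. The log2 fold change was 0.52 (95% interval −0.81 to 1.85, limma adjusted p = 0.626), and without OSKA + 4OHT replicate 3 it was −0.14. The annotated transcripts of *Max* run from 203 to 1942 bases, so its TPM depends on how reads are shared between short and long transcripts, and whether this moved the value of that well was not tested.

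Among the antagonists, *Mxd4* and *Mxi1* were the abundant genes. *Mxd4* (ENSMUSG00000037235, chr5:34173883-34187720 on the minus strand), which codes for a MAX-binding repressor of differentiating and resting cells, was listed at 49.7, 68.2 and 65.9 TPM in the vehicle wells and at 50.5, 53.5 and 36.6 TPM in the treated wells. *Mxi1* (ENSMUSG00000025025, chr19:53310518-53375810 on the plus strand), another repressor of the MXD class, was listed at 25.4, 31.0 and 40.0 TPM and at 31.0, 26.3 and 19.6 TPM. The groups overlapped for both genes, and the lowest well of each was OSKA + 4OHT replicate 3. The log2 fold changes were −0.39 (95% interval −0.90 to 0.13, limma adjusted p = 0.359) for *Mxd4* and −0.32 (95% interval −0.93 to 0.29, adjusted p = 0.532) for *Mxi1*.

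*Mxd3* (ENSMUSG00000021485, chr13:55325168-55329823 on the minus strand) is the MXD gene whose expression is linked to S phase. It was listed at 7.27, 5.99 and 2.75 TPM in the vehicle wells and at 11.5, 7.45 and 6.95 TPM in the treated wells. The groups overlapped only through the highest vehicle well and the lowest treated well. Its log2 fold change of 0.71 (95% interval −0.26 to 1.67) did not pass the test (limma adjusted p = 0.373). *Mxd1* (ENSMUSG00000001156, chr6:86647042-86669161 on the minus strand), the MXD gene of terminal differentiation, was between 2.23 and 3.46 TPM in all 6 wells, with a log2 fold change of 0.12 (95% interval −0.62 to 0.87, adjusted p = 0.856). *Mnt* (ENSMUSG00000000282, chr11:74830920-74845725 on the plus strand), the antagonist found in nearly all cells, was listed at 11.8, 15.8 and 11.7 TPM and at 7.44, 11.2 and 22.0 TPM, and its treated wells spanned the vehicle wells on both sides. Its log2 fold change was −0.08 (95% interval −1.03 to 0.88, adjusted p = 0.939).

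**Figure D3:**
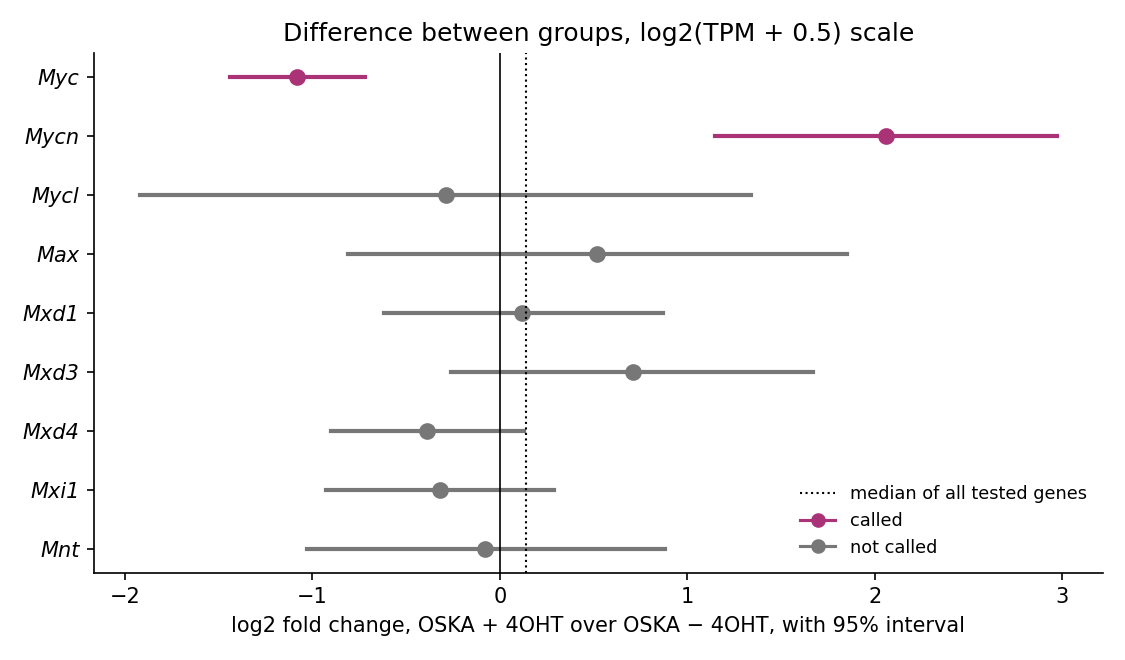
Log2 fold change of each member in OSKA + 4OHT relative to OSKA − 4OHT on the log2(TPM + 0.5) scale, with bars for the 95% interval of limma and a line at the median of all tested genes, 0.14. The intervals of *Myc* (−1.44 to −0.72) and *Mycn* (1.15 to 2.97) exclude 0, and those of the other 7 members include it.

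The summed level of the 4 MXD genes was 101.7 ± 14.9 TPM in the vehicle wells and 84.4 ± 15.7 TPM in the treated wells, with overlapping wells. *Mxd4* made up 60.1 ± 2.40% and 55.6 ± 3.48% of it, and *Mxi1* 31.5 ± 3.74% and 30.3 ± 1.68%. Per unit of MYC class mRNA, the MXD class stood at 1.93, 2.77 and 2.44 in the vehicle wells and at 4.20, 3.13 and 2.62 in the treated wells, where the lowest treated well lay inside the vehicle range. With *Mnt* added, the ratio was 2.19, 3.17 and 2.70 in the vehicle wells and 4.53, 3.51 and 3.49 in the treated wells. That ratio did not overlap between groups, with means of 2.69 ± 0.490 and 3.84 ± 0.595. With 3 wells in each group, the smallest 2-sided p-value of an exact permutation test is 0.1, so no call was made on these ratios, in which the fall of *Myc* enters the denominator.

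In the vehicle wells, the order of the mean levels in TPM, which is a measure per transcript length, was *Max*, *Mxd4*, *Myc*, *Mxi1*, *Mnt*, *Mxd3*, *Mxd1*, *Mycl* and *Mycn*. Neighbours whose wells overlapped were *Max* and *Mxd4*, *Myc* and *Mxi1*, *Mxd3* and *Mxd1*, and *Mxd1* and *Mycl*. In the treated wells, the order was *Max*, *Mxd4*, *Mxi1*, *Myc*, *Mnt*, *Mxd3*, *Mycn*, *Mxd1* and *Mycl*, with overlap between *Myc* and *Mnt*, between *Mnt* and *Mxd3*, and between *Mxd1* and *Mycl*. *Mycn* thus stood last of the 9 in the vehicle wells and above *Mxd1* and *Mycl* in the means of the treated wells, although OSKA + 4OHT replicate 2 had slightly more *Mycl* than *Mycn*.

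The tested genes whose levels ran most like those of a member over the 6 wells were found by the root mean square difference of the log2 values after centring each gene on its own mean. For *Myc*, they were *Farp1* (difference 0.0620), with means of 38.4 ± 3.35 and 16.7 ± 0.859 TPM, and *Hus1* (0.0746), with means of 43.6 ± 2.85 and 18.6 ± 0.775 TPM. For *Mycn*, they were *Ifi204* (0.157), an interferon-inducible gene, with means of 9.76 ± 1.71 and 35.9 ± 4.85 TPM, and *Zfp42* (0.181), which codes for the pluripotency marker REX1, with means of 0.530 ± 0.208 and 4.30 ± 0.342 TPM. For *Mxd4*, they were *Tmsb4x* (0.0526) and *Icmt* (0.0633). These pairs describe 6 wells of 2 groups, and any gene with a similar difference between groups comes close to *Myc* or *Mycn* by this measure.

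Genes around the network, taken as the partners *Mga*, *Mlx*, *Mlxip*, *Mlxipl* and *Zbtb17* and the noncoding gene *Pvt1*, the neighbour of *Myc*, were tested for 5 of 6, without *Mlxipl*. They gave 0 calls in either direction at an adjusted p-value under 0.05 with limma, and 2 at an unadjusted p-value under 0.05, beside 21.3% of all tested genes. *Mlx*, which codes for the MAX-like partner of the MXD and MondoA proteins, was listed at 55.1, 52.4 and 17.1 TPM in the vehicle wells and at 95.6, 74.1 and 85.5 TPM in the treated wells (log2 fold change 1.19, adjusted p = 0.201). *Zbtb17*, which codes for MIZ1, through which MYC represses genes, had means of 4.18 ± 0.689 and 6.68 ± 0.546 TPM (log2 fold change 0.63, adjusted p = 0.210). *Pvt1* was listed at 26.4, 11.1 and 16.2 TPM in the vehicle wells and at 12.3, 9.17 and 18.3 TPM in the treated wells, with overlapping groups (log2 fold change −0.39, adjusted p = 0.605). Neither *Mlx* nor *Zbtb17* passed the test, though the wells of the groups did not overlap for either gene, as for 28.2% of all tested genes (18.1% higher). These 3 genes were named after their values were seen.

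Of the 6 corepressor genes that MXD proteins and MNT recruit, 2 rose at an adjusted p-value under 0.05 and 0 fell, beside 3.52% and 1.97% of all tested genes, or 5.49% in either direction. *Hdac1*, a histone deacetylase of the SIN3 complex, was listed at 54.6, 50.1 and 61.3 TPM in the vehicle wells and at 114.4, 118.4 and 97.7 TPM in the treated wells, with no overlap. Its mean rose from 55.3 ± 5.65 to 110.1 ± 11.0 TPM (log2 fold change 0.99, SE 0.148, limma adjusted p = 0.0184). *Hdac2*, its close relative and named after its values were seen, rose from 103.2 ± 6.59 to 175.1 ± 18.4 TPM (log2 fold change 0.76, adjusted p = 0.0299). *Hdac1* kept an adjusted p-value under 0.05 in 2 of 6 leave-one-out fits (0.0384 to 0.0852) and *Hdac2* in 0 of 6 (0.0633 to 0.116), and *Hdac2* also lost it with trimmed mean scaling and without the variance trend. The median log2 fold change of the 6 corepressor genes was 0.07, and it was −0.03 with trimmed mean scaling and 0.00 with quantile normalization.

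All 9 coactivator genes of MYC had a log2 fold change above 0, beside 59.3% of all tested genes, with a median of 0.51 (8 of 9 above 0 with either other scaling, with medians of 0.41 and 0.35), and 0 passed the test in either direction with limma (3 higher and 0 lower at an unadjusted p-value under 0.05). Of 11 genes for the turnover and stability of MYC proteins, 10 had a log2 fold change above 0, with a median of 0.66 (0.56 and 0.50 with the other scalings), and 0 passed (4 and 0 unadjusted, beside 21.3% of all tested genes in either direction). Over the 89 tested genes of the 7 lists together, 25 were higher and 5 lower at an unadjusted p-value under 0.05, beside 14.1% and 7.18% of all tested genes. With trimmed mean scaling, 14 were higher and 7 lower, beside 11.4% and 9.86%, and with quantile normalization 14 and 6, beside 10.5% and 10.7%. When 1 well was left out, 11 to 20 were higher and 3 to 6 lower. *Aurka* codes for the kinase that protects N-MYC from degradation and is also a mitosis gene. Among the 11 stability genes, it came nearest to passing (log2 fold change 1.35, limma adjusted p = 0.0539). It was listed at 19.6, 16.8 and 11.3 TPM in the vehicle wells and at 39.5, 54.6 and 30.7 TPM in the treated wells. *Skp2*, which codes for a ubiquitin ligase subunit acting on MYC, had means of 4.86 ± 1.43 and 10.3 ± 1.56 TPM (log2 fold change 1.04, adjusted p = 0.0995). The wells of the groups did not overlap for *Aurka* and *Skp2*, which were named after their values were seen. In their list, 5 of 11 genes did not overlap, all of them higher, beside 18.1% of all tested genes.

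Genes known as targets of MYC were taken in 3 lists. Of 25 targets in ribosome synthesis and the nucleolus, 0 passed the test in either direction with limma (6 higher and 0 lower at an unadjusted p-value under 0.05, beside 14.1% and 7.18% of all tested genes), and 18 had a log2 fold change above 0, with a median of 0.22 beside 0.14 for all genes (0.12 and 0.07 with trimmed mean scaling and quantile normalization, beside 0.05 and 0.00). The wells did not overlap for 7 of the 25, or 28.0%, beside 28.2% of all tested genes. All 7 were higher and 0 lower, beside 18.1% of all tested genes not overlapping higher and 10.0% lower. Of 24 tested targets in metabolism and growth, 1 rose and 0 fell at an adjusted p-value under 0.05, beside 3.52% and 1.97% of all tested genes, and the median was 0.33 (0.22 and 0.17 with the other scalings). At an unadjusted p-value under 0.05, 8 were higher and 2 lower, beside 14.1% and 7.18% of all tested genes. The wells did not overlap for 10 higher genes and 1 lower gene of this list, or 45.8% of it, beside 28.2% of all tested genes (18.1% higher and 10.0% lower). The 10 include *E2f2*, which averaged 0.919 TPM in the vehicle wells and was tested only because of its treated wells, as do the 8 higher at an unadjusted p-value. The gene that rose past the adjusted p-value was *Ldha*, which codes for the enzyme that turns pyruvate into lactate, at 619.7, 627.7 and 632.2 TPM in the vehicle wells and 1571.4, 1564.1 and 1195.0 TPM in the treated wells (log2 fold change 1.19, SE 0.128, limma adjusted p = 0.00728). It kept an adjusted p-value under 0.05 in all 6 leave-one-out fits. *Ldha* is also a target of other factors, the hypoxia-inducible factors among them.

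Of 9 tested genes known to be repressed by MYC, 3 fell and 0 rose, beside 1.97% of all tested genes lower and 3.52% higher, and the median log2 fold change was −0.34 (−0.44 and −0.53 with the other scalings). *Thbs1*, which codes for the secreted inhibitor of angiogenesis thrombospondin-1, had the largest fall among them, with a log2 fold change of −2.42 (limma adjusted p = 0.00298). *Pdgfrb*, which codes for a growth factor receptor of fibroblasts, fell by 1.65 on the log2 scale (adjusted p = 0.0113), a call lost without OSKA + 4OHT replicate 1 (adjusted p = 0.0542). *Cdkn2b*, which codes for a CDK inhibitor that MYC and MIZ1 repress, was listed at 47.3, 58.7 and 48.1 TPM in the vehicle wells and at 23.1, 18.7 and 23.1 TPM in the treated wells (log2 fold change −1.23, SE 0.174, adjusted p = 0.0159). Its adjusted p-value was between 0.0454 and 0.0651 when 1 well was left out and stayed under 0.05 in 3 of 6 such fits. *Pdgfrb*, *Cdkn2b* and *Cdkn1a* were named after their values were seen. *Cdkn1a*, the CDK inhibitor gene that is the usual example of repression by MYC with MIZ1, had means of 250.8 ± 25.0 and 282.5 ± 40.2 TPM (log2 fold change 0.17, adjusted p = 0.566).

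**Figure D4:**
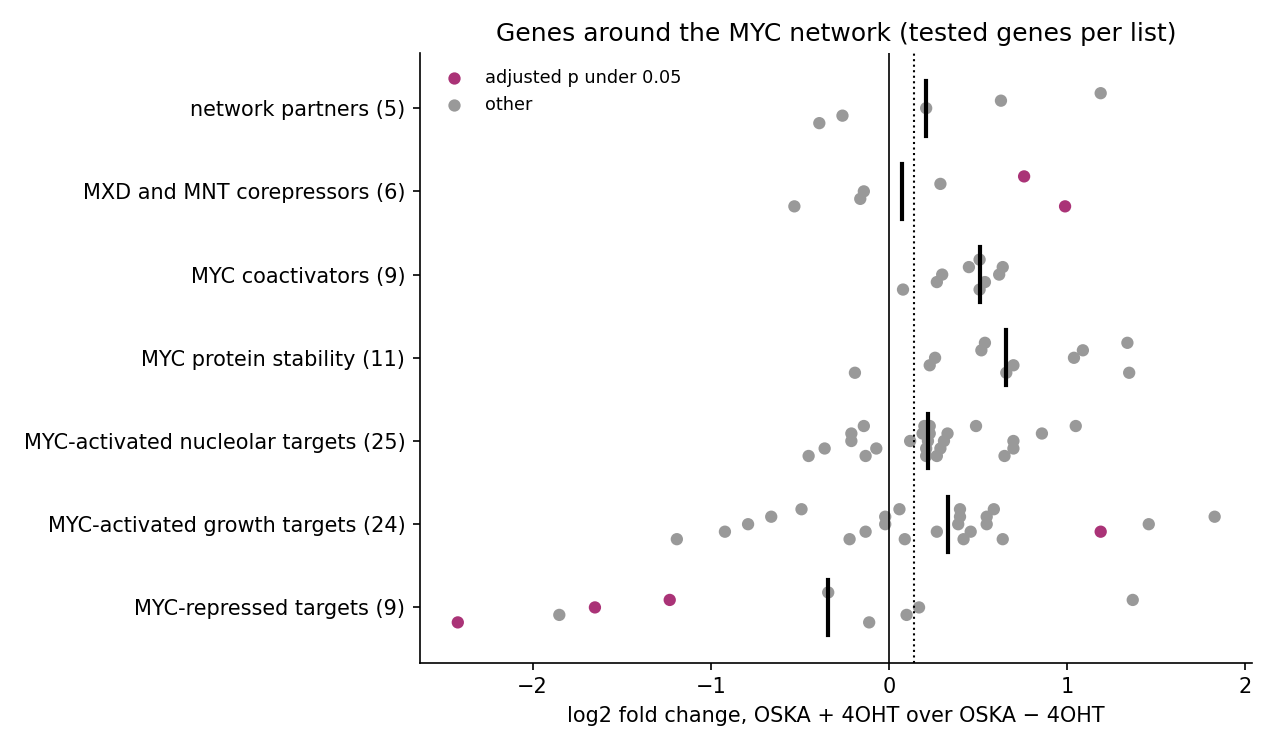
Log2 fold change of each tested gene in the 7 lists of partners, corepressors, coactivators, stability factors and targets, with 1 point per gene, red-purple where the adjusted p-value is under 0.05, and a bar at the median of each list. The medians run from −0.34 for the MYC-repressed targets to 0.66 for the stability genes, and the red-purple points are 3 higher and 3 lower genes.

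The wells were not sorted and hold cells at different stages, and in such bulk samples a change in the number of cells of a type and a change in RNA per cell cannot be told apart. The summed level of pluripotent cell markers, like the level of *Mycn*, was higher in the treated wells. It was 14.5 to 17.9 TPM in the vehicle wells and 66.1 to 72.9 TPM in the treated wells, with *Nanog*, *Zfp42*, *Dppa5a* and *Tdgf1* past the test. *Esrrb*, *Sall4*, *Utf1* and *Fgf4* were tested and did not pass. Most of the vehicle sum was *Fgf4*, at 9.18 to 12.3 TPM there and 12.1 to 16.8 TPM in the treated wells (limma adjusted p = 0.366). *Nanog*, *Zfp42* and *Dppa5a* averaged under 1 TPM in the vehicle wells and were tested only because of their treated wells, so no count over the tested markers is read here. Of the 10 markers, 4 (*Dppa4*, *Dppa5a*, *Lin28a* and *Utf1*) were listed at 0 in all vehicle wells. Beside the counts of other markers that follow stand 3.52% of all tested genes rising and 1.97% falling. Epithelial markers summed to 31.9 to 71.7 and 151.3 to 166.2 TPM, with 3 of 5 tested rising, and proliferation markers to 463.2 to 573.9 and 653.7 to 903.1 TPM, with 4 of 8 rising. Markers of fibroblasts, the starting cells, summed to 4981.2 to 5618.2 TPM in the vehicle wells and 3652.9 to 4116.7 TPM in the treated wells, with 2 of 8 rising and 2 falling. Macrophage markers summed to 123.6 to 135.3 and 78.1 to 89.7 TPM, most of it *Lyz2*, the 1 of 7 that fell. Across all 6 wells, *Cd68* was at 11.8 to 22.1 TPM, *Adgre1* at 1.72 to 18.7 and *Itgam* at 4.51 to 6.21. *Csf1r* was at 0.935 to 4.29 TPM, *Aif1* at most 3.82 and *Ptprc*, a marker of blood cells, at most 1.67. The part of these cell mixtures in the fall of *Myc*, the rise of *Mycn* and the changes of *Hdac1*, *Hdac2*, *Ldha*, *Thbs1*, *Pdgfrb* and *Cdkn2b* was not tested.

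**Figure D5:**
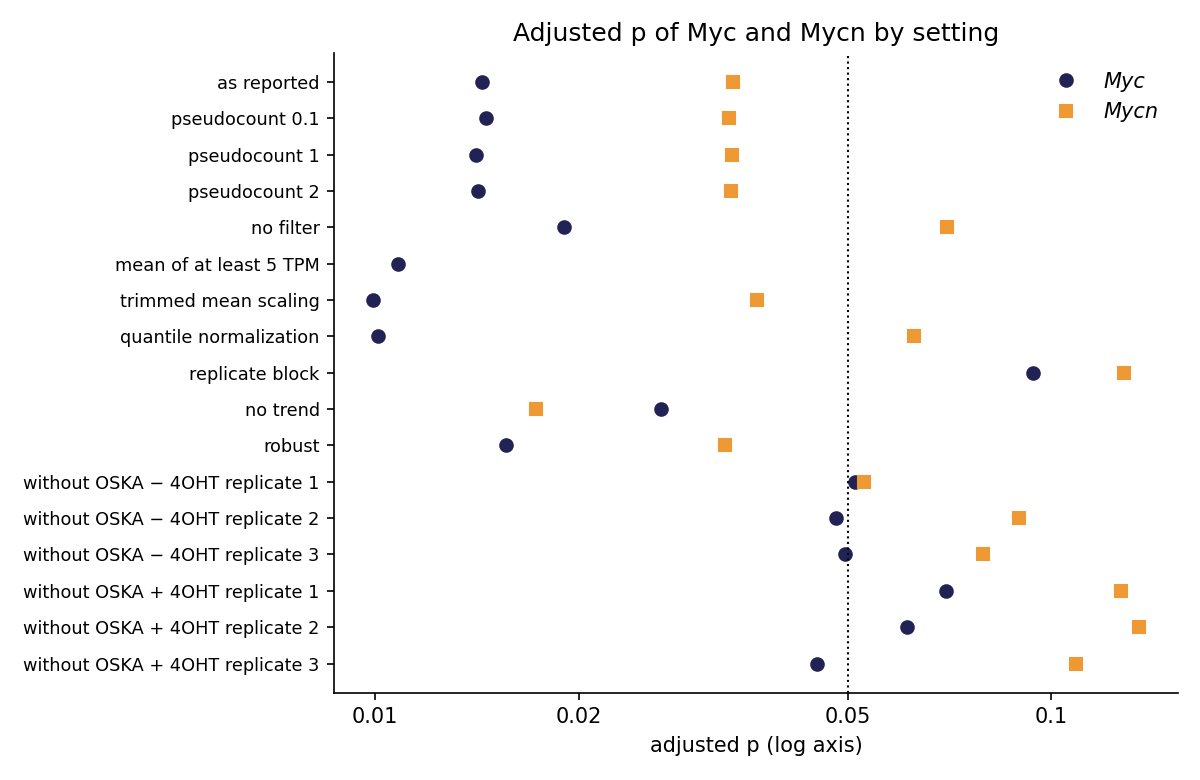
Adjusted p-value of *Myc* (circles) and *Mycn* (squares) on a log axis, as reported and under each alternative, including fits that leave out 1 well, with a dotted line at 0.05. Both genes lie beyond the line with the replicate block (0.0939 and 0.128), and *Mycn* lies beyond it in all 6 leave-one-out fits (0.0528 to 0.135).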

How the data were processed

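RNA of 6 wells was sequenced by the authors as polyA-selected stranded libraries. The authors trimmed the reads and quantified them with Salmon, and deposited 1 TPM value per gene and well. The annotation release is not given in the sources used here. The authors' own comparison was deposited beside them, as log2 fold change, log2 mean level, an F score and a p-value, and was not used. Symbols and positions came from GENCODE M21 (GRCm38) by Ensembl identifier.

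From the TPM values, limma 3.58.1 in R 4.3.3 (trend, no block) was run on log2(TPM + 0.5) over genes whose mean reached 1 TPM, with Benjamini-Hochberg adjustment. On simulated data with 200 of 15382 genes changed, this test recovered 28.5% of them, with 2 false calls, so a gene that was not called is not shown to be unchanged. Reads per gene are approximate, from an assumed fragment length of 250 bases. Transcripts at least 90% identical to those of the members over at least 100 bases were searched for with BLAST. *Max* and *Mxi1* had such copies, *Gm3774*, *Gm45596* and *Gm13735*, all listed at 0 TPM in every well. The members, gene lists and tests were chosen with earlier results of these data known. Named were the 9 members, *Akt1* and *Esr1*, the gene with the largest rise and fall past the adjusted p-value in each pathway list, and the 2 genes most like *Myc*, *Mycn* and *Mxd4*, and others are marked where they appear. Alternatives were other pseudocounts, filters, scalings and variance models, the replicate number as a block, and leaving out each well.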

Additional observations from a re-analysis of the deposited data

How the results depend on the processing

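The direction of *Myc*, *Mycn*, *Mxd3*, *Mxd4* and *Mxi1* was kept under all alternatives in which each was tested. Same-numbered wells correlated at 0.0235, 0.0341 and 0.0837 across genes in their deviations from the group means. Wells with different numbers correlated at −0.062 to 0.0327. With 3 wells per group, these values cannot settle whether the replicate numbers pair the wells. With the replicate block, *Myc* stayed at −1.08 (limma adjusted p = 0.0939) and *Mycn* at 2.06 (0.128), so that 0 members were called higher and 0 lower (2 at an unadjusted p-value under 0.05), with 31 genes higher and 16 lower over all genes and 0 pathway genes higher and 1 lower (20 and 6 unadjusted). *Mycn* was not called without a filter (2.06, adjusted p = 0.0702) or with quantile normalization (1.85, adjusted p = 0.0627), and it was not tested at a mean of at least 5 TPM, so that 0 members were called higher in these settings (of *Myc* and *Mycn*, both, both and *Myc* alone had an unadjusted p-value under 0.05). With the filter at 5 TPM, 5 pathway genes were higher, with *Aurka* and the growth target *Ptma* added. *Mxd1* was at −0.12 with quantile normalization. Leaving out 1 well gave 0 members called higher and 0 to 1 called lower (2 at an unadjusted p-value under 0.05 each time), 111 to 303 genes higher and 63 to 127 lower, and 1 to 2 pathway genes higher and 1 to 3 lower. In these fits *Myc* ranged from −1.14 to −1.05, *Mycn* from 1.91 to 2.27, *Mycl* from −0.90 to 0.24, *Max* from −0.14 to 0.94, *Mxd1* from −0.05 to 0.22 and *Mnt* from −0.48 to 0.27. *Mxd3* ranged from 0.33 to 0.96, *Mxd4* from −0.53 to −0.22 and *Mxi1* from −0.48 to −0.14. Of all called genes, 67.7% were higher (441 and 210), beside 57.2% with trimmed mean scaling (374 and 280) and 53.1% with quantile normalization (335 and 296). The cause of these differences was not tested. At the approximate depth and on the longest annotated transcript, *Mycn*, *Mycl*, *Mxd3* and *Mxd1* rest on few reads, with 6, 27, 28 and 47 over the vehicle wells. The shortest transcript would give fewer for every member other than *Max*. For *Myc* it would give about 4.55 to 8.35 reads per vehicle well. For *Max* it is 203 bases long, less than the assumed fragment length, so reads cannot be estimated on it.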
